A study of Homo sapiens with 6 samples.

Results

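Replication licensing was examined through 10 genes, MCM2, MCM3, MCM4, MCM5, MCM6, MCM7, CDT1, CDC6, ORC1 and GMNN, which were taken by gene name from a table of 21494 genes. Positions are given on hg38. All 10 were found once in the table and all 10 passed the filter on low counts. The RNA-seq data came from 6 samples described in the study as G361 human melanoma cells. In 3 samples the cells carried a nontargeting control shRNA (Control sh), and in the other 3 they carried a lentiviral shRNA against the coding region of VprBP, whose gene is DCAF1 (VprBP sh). Both groups were stable lines selected with puromycin, and a single VprBP shRNA sequence was used. The labels name LD611 as the source beside G361 as the cell line, and they do not say whether replicates came from separate cultures, so p-values measure the spread between these samples, which may be technical.

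Origins of replication are licensed in G1, when the origin recognition complex, with ORC1 as one of its subunits, and CDC6 recruit CDT1 together with the ring of MCM2 to MCM7 and load that ring onto DNA as the inactive helicase. Geminin, the product of GMNN, binds CDT1 and blocks reloading after S phase has begun. CDT1 is also destroyed in S phase by the CRL4 ubiquitin ligase with its DTL receptor. VprBP is itself a substrate receptor of CRL4. The counts measure transcripts, and protein levels of the licensing factors were not analysed here.

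The samples carried 18195949 to 26883948 estimated counts. Across genes, Pearson's r of log2(normalized count + 1) ran from 0.985 to 0.994 between samples of one group and from 0.653 to 0.661 between groups. Replicates 2 and 3 resembled each other more than replicate 1 in both groups, with a chi-square per degree of freedom of 2.36 to 2.50 against 17.6 to 29.1, and each was kept as a sample. The targeted gene DCAF1 had 688, 893 and 884 counts in the Control sh samples, compared with 681, 488 and 628 in those labelled VprBP sh, a log2 fold change of -0.58 (SE, the standard error, 0.17, with adjusted p = 0.0125 by the quasi-likelihood test of edgeR). It did not reach an adjusted p under 0.05 with library size scaling (-0.37, edgeR adjusted p = 0.0851) or with replicates 2 and 3 summed as 1 sample (-0.46, edgeR adjusted p = 0.0839). Of 8 melanocyte markers, 4 had rows analysed here, and their summed level was 197 to 234 normalized counts over the Control sh samples and 242 to 305 over those of VprBP sh. MLANA, a defining melanocyte marker, had at most 2 counts in a Control sh sample and at most 5 in a VprBP sh sample. Melanocyte markers were thus low in both groups. The 12 urothelial and epithelial markers analysed summed to 164357 to 167470 normalized counts over the Control sh samples and 42515 to 46393 over those of VprBP sh. Much of the fall was in KRT5, with group means of 64337 and 3453, and KRT17, with 41325 and 391. The markers did not move together. Of the 11 tested, 4 were higher in VprBP sh (GATA3, FOXA1, PPARG and EPCAM) and 7 were lower. TP63, a basal epithelial regulator, had 8715, 7670 and 8806 counts in the Control sh samples, compared with 9, 8 and 13 in the VprBP sh samples, while GATA3 had 7, 1 and 0 counts and 1580, 1334 and 1873 counts. UPK1B, a urothelial membrane protein, had 500, 641 and 709 counts in Control sh and was at 0 counts in all 3 VprBP sh samples. The 2 groups thus differed in lineage markers as well as in the shRNA label, and whether they are the same cell line was not tested. If they are not, the shRNA and the cell line cannot be told apart, and each fold change below compares the samples labelled VprBP sh with those labelled Control sh.

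Many licensing genes are known targets of E2F factors, so their promoters were searched for exact forms of the letters that E2F factors bind. The forms searched were TTTCCCGC, TTTCGCGC, TTTGCCGC and TTTGGCGC, on both strands, over 250 bases before and 50 bases after the RefSeq start. RefSeq promoters on GRCh38.p14 were matched by symbol for 8 of the members, all but MCM4 and MCM5. At least 1 form was present in 6 of these 8 promoters (MCM2, MCM3, MCM6, MCM7, CDT1 and CDC6), compared with 3.3% of 34796 distinct promoters of the same length. The letters CCAAT, searched in the same way, were present in 5 of the 8 and in 34.6% of all promoters. ORC1 and GMNN held no exact match to these E2F forms in this window. Sites that differ from the forms by a letter were not counted in any promoter. ORC1, for example, holds attggcgc, which differs from TTTGGCGC in its first letter. The stretches below show the matches, in capitals, within 30 bases read 5′ to 3′ on the strand of the gene.
MCM2, chr3:127598404-127598433, plus strand: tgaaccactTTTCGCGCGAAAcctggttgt
MCM3 site 1, chr6:52284898-52284927, minus strand: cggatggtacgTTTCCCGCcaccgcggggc
MCM3 site 2, chr6:52284728-52284757, minus strand: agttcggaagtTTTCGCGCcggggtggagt
MCM6 site 1, chr2:135876575-135876604, minus strand: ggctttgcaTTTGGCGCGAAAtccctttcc
MCM6 site 2, chr2:135876513-135876542, minus strand: ttggtcaggTTTGGCGCGAAAtctccagct
MCM7 site 1, chr7:100101566-100101595, minus strand: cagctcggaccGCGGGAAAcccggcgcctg
MCM7 site 2, chr7:100101388-100101417, minus strand: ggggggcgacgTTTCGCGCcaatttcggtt
CDT1, chr16:88803743-88803772, plus strand: ccagggcgcccGCGGGAAAtttggcgggaa
CDC6, chr17:40287875-40287904, plus strand: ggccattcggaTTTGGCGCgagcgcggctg

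The match in MCM2 was a run of 12 bases in which TTTCGCGC on one strand overlaps the same letters on the other, and it lay at positions 3 to 14, counted from 1 at the start. MCM6 held such overlapping runs from -152 to -141 and from -90 to -79, where -1 is the base before the start, with TTTGGCGC on the strand of the gene and TTTCGCGC on the other. Overlapping forms were thus held by both MCM2 and MCM6, and whether they bear on the transcript levels was not tested. The 250 bases before the start of CDT1, which rose, and of MCM6 are shown whole, with matches in capitals, because they are the upstream stretches that carry the matches of members higher in VprBP sh. A match is a description of the letters, and binding was not measured in these samples.
CDT1, chr16:88803539-88803788, plus strand: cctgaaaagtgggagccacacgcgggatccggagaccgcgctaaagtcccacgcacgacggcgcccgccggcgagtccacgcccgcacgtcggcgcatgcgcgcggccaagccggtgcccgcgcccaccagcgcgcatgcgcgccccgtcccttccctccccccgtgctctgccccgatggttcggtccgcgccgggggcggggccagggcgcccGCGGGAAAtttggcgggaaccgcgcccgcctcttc
MCM6, chr2:135876444-135876693, minus strand: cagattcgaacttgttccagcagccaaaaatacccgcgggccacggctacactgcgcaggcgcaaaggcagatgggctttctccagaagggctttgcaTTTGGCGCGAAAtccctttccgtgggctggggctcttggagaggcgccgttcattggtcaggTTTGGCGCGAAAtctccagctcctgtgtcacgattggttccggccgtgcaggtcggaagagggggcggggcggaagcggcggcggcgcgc

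Transcripts of the licensing genes differed in both directions between the VprBP sh and Control sh samples. ORC1, CDT1, GMNN, MCM6 and MCM5 were higher in VprBP sh, and MCM2, MCM4, MCM7, CDC6 and MCM3 were lower. Counts were scaled by upper quartile factors and compared with edgeR, and calls required a fold change over 2 and a p under 0.05 after Benjamini-Hochberg adjustment over all genes tested. By this rule 2 members were called higher (ORC1 and CDT1), against 24.5% of all genes tested, and 2 were called lower (MCM2 and MCM4), against 22%. The 4 called members of 10 are close to the 46.4% of all 16756 genes tested that were called. At any fold, 5 members were higher and 5 lower with an adjusted p under 0.05, where 40.4% and 36% of all genes tested were, or 76.4% together. The groups did not overlap in any of the 10 members, as for 79.5% of all genes tested. The median log2 fold change of the members was -0.01 against 0.08 for all genes tested, and the median of its absolute size was 0.82 against 0.92. The shares of members called were thus near those of all genes tested.

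**Figure D1:**
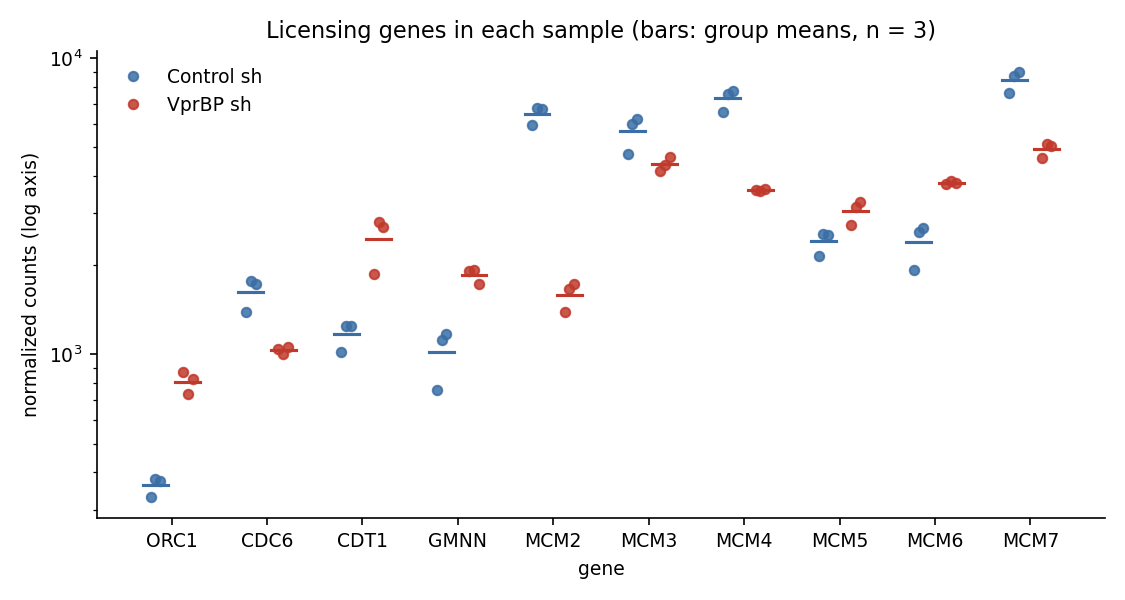
Normalized counts (log axis) of the 10 licensing genes in each of the 3 Control sh samples (blue) and 3 VprBP sh samples (red), with horizontal bars at the group means. The groups do not overlap in any gene, and the widest gap is in MCM2, at 5933 to 6800 in Control sh against 1388 to 1727 in VprBP sh.

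Among the loading factors, ORC1, the ATPase subunit that marks origins in G1, was on chromosome 1 (ENSG00000085840.13, 52372829 to 52404423, minus strand). It had 332, 379 and 374 normalized counts in the Control sh samples, compared with 870, 733 and 829 in the VprBP sh samples. Every VprBP sh sample lay well above every Control sh sample. The group means were 362 ± 26 and 811 ± 70 (SD, n = 3), which is a log2 fold change of 1.16 (SE 0.11, edgeR adjusted p = 8.95e-06). The call rests on a value near 2-fold, since a test against a fold of 2 with edgeR's glmTreat gave an adjusted p of 0.0703.

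CDC6, the ATPase that joins ORC to complete the loader, moved the other way. It lies on chromosome 17 (ENSG00000094804.12, 40287879 to 40304657, plus strand) and had 1387, 1768 and 1724 normalized counts in the Control sh samples, compared with 1040, 1007 and 1060 in the VprBP sh samples. The VprBP sh samples were nearly level with each other and all below the lowest Control sh sample. The log2 fold change was -0.65 (SE 0.11, edgeR adjusted p = 0.000331), which does not reach 2-fold. Within a sample, the ratio of ORC1 to CDC6 counts was 0.239, 0.214 and 0.217 in Control sh and 0.836, 0.728 and 0.782 in VprBP sh. This ratio does not depend on the scaling of the samples, and it was chosen after the values of both genes had been seen.

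CDT1, which brings the MCM ring to the loader, lies on chromosome 16 (ENSG00000167513.9, 88803789 to 88809258, plus strand). Its normalized counts were 1021, 1244 and 1248 in Control sh and 1871, 2803 and 2700 in VprBP sh. All VprBP sh samples were above all Control sh samples, with replicate 1 the lowest of the 3 in each group. The means were 1171 ± 130 and 2458 ± 511 (SD, n = 3), which is a log2 fold change of 1.07 (SE 0.15, edgeR adjusted p = 0.000145). The fold change fell just under 2 with TMM factors, with DESeq2 and without Control sh replicate 1 or VprBP sh replicates 2 or 3, at log2 fold changes of 0.97, 0.95, 0.98, 0.96 and 0.99, and the call was then lost while the adjusted p stayed under 0.05. Tested against a fold of 2 with glmTreat of edgeR, CDT1 had an adjusted p of 0.319.

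GMNN, the gene of geminin, was on chromosome 6 (ENSG00000112312.10, 24774931 to 24786099, plus strand) and had 761, 1118 and 1177 normalized counts in the Control sh samples, compared with 1908, 1921 and 1728 in the VprBP sh samples. Control sh replicate 1 was the lowest sample. The log2 fold change was 0.86 (SE 0.15, edgeR adjusted p = 0.000525), and it passed 2-fold only with library size scaling among the alternatives tried, at 1.07.

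Because geminin restrains CDT1, the ratio of the 2 transcripts was compared within samples. It was 1.34, 1.11 and 1.06 in Control sh and 0.981, 1.46 and 1.56 in VprBP sh, with means of 1.17 ± 0.15 and 1.33 ± 0.31 (SD, n = 3). The groups overlapped, VprBP sh replicate 1 being the lowest of all samples and replicates 2 and 3 the highest. On the log2 scale the difference was 0.17, with p = 0.5 in an exact two-sided permutation test, whose smallest possible p for 3 samples against 3 is 0.1. A difference in the ratio was thus not detectable with these samples, although both transcripts rose. The difference ran from 0.04 without VprBP sh replicate 3 to 0.37 without VprBP sh replicate 1.

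**Figure D2:**
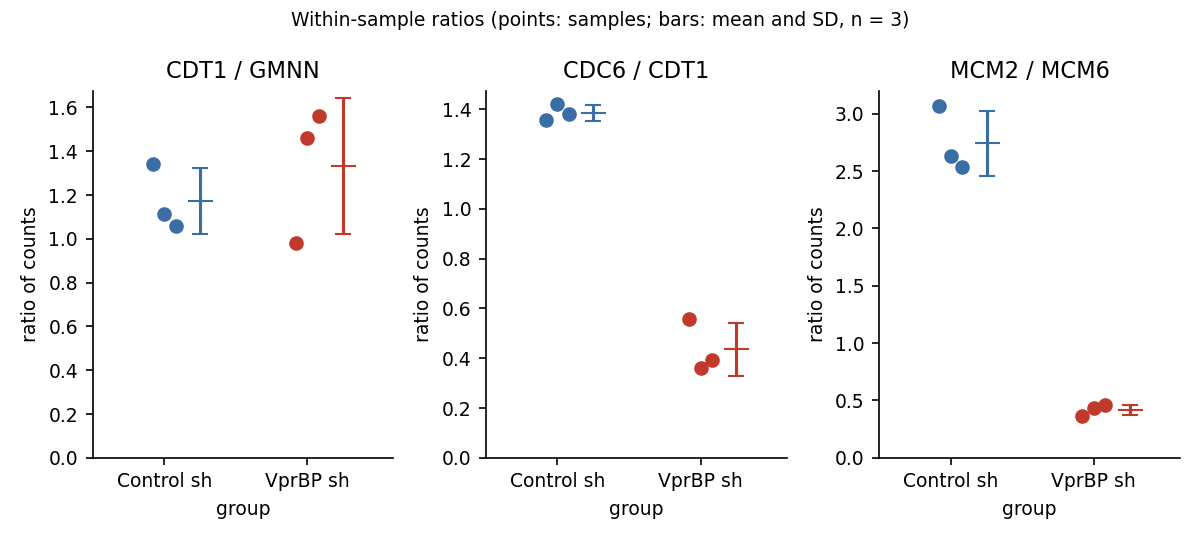
Ratios of counts within each sample for CDT1 to GMNN (left), CDC6 to CDT1 (middle) and MCM2 to MCM6 (right), on linear axes that start at 0, with points for the samples and bars for the group mean and SD (n = 3). The groups overlap for CDT1 to GMNN and are apart for the other ratios, where CDC6 to CDT1 goes from 1.36 to 1.42 in Control sh to 0.359 to 0.556 in VprBP sh. Only CDT1 to GMNN was a planned ratio. The other ratios each set a member that was lower in VprBP sh against one that was higher, so their separation adds no evidence beyond the single genes.

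The ring subunits did not move together. MCM2, which binds histones as well as forming part of the ring, lies on chromosome 3 (ENSG00000073111.14, 127598410 to 127622436, plus strand) and changed most. It had 5933, 6800 and 6752 normalized counts in the Control sh samples, compared with 1388, 1661 and 1727 in the VprBP sh samples. The highest VprBP sh sample was far below the lowest Control sh sample. The means were 6495 ± 487 and 1592 ± 180 (SD, n = 3), which is a log2 fold change of -2.03 (SE 0.11, edgeR adjusted p = 1.35e-07) or 4.08-fold lower. Of all genes tested, 75.4% had an absolute log2 fold change no larger than that of MCM2. It was the only member called in every alternative tried, at log2 fold changes from -2.15 to -1.82. A long noncoding RNA gene on the opposite strand overlaps 2331 bases of MCM2 in GENCODE 44, and strand use in the counting is not given in the sources used here.

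MCM4, MCM6 and MCM7 form the core of the helicase within the ring. MCM4, on chromosome 8 (ENSG00000104738.18, 47960185 to 47978160, plus strand), had 6598, 7579 and 7738 normalized counts in the Control sh samples, compared with 3578, 3562 and 3619 in the VprBP sh samples. The VprBP sh samples were within a narrow range below all Control sh samples. The log2 fold change was -1.03 (SE 0.08, edgeR adjusted p = 3.05e-06), close enough to 2-fold that the call was lost with library size scaling (-0.82) and without Control sh replicate 3 (-0.99). With glmTreat of edgeR against a fold of 2 the adjusted p of MCM4 was 0.379.

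MCM7, on chromosome 7 (ENSG00000166508.18, 100092728 to 100101940, minus strand), had 7641, 8697 and 8973 normalized counts in the Control sh samples, compared with 4587, 5142 and 5047 in the VprBP sh samples, with a log2 fold change of -0.78 (SE 0.09, edgeR adjusted p = 3.31e-05). MIR25, MIR93 and MIR106B lie within the gene on the same strand, and AP4M1 overlaps one end on the opposite strand. MCM6, on chromosome 2 (ENSG00000076003.5, 135839626 to 135876443, minus strand), went up, with 1935, 2588 and 2663 normalized counts in the Control sh samples, compared with 3769, 3850 and 3785 in the VprBP sh samples. All VprBP sh samples of MCM6 were above all Control sh samples, with Control sh replicate 1 the lowest. Its log2 fold change was 0.67 (SE 0.12, edgeR adjusted p = 0.000567).

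MCM3, and MCM5, which forms the gate of the ring with MCM2, changed least among the subunits. MCM3, on chromosome 6 (ENSG00000112118.20, 52264014 to 52284881, minus strand), ran from 4744 to 6219 normalized counts in Control sh, compared with 4153 to 4626 in VprBP sh, with a log2 fold change of -0.37 (95% interval -0.62 to -0.12, edgeR adjusted p = 0.0118). MCM5, on chromosome 22 (ENSG00000100297.16, 35400134 to 35425431, plus strand), ran from 2146 to 2548 and from 2725 to 3264, with a log2 fold change of 0.34 (95% interval 0.11 to 0.57, edgeR adjusted p = 0.0123). Both differences were small against the scaling. With library size alone MCM3 was at -0.16 (edgeR adjusted p = 0.221), and with DESeq2 MCM5 was at 0.22 (adjusted p = 0.0776). They also depended on the replicates. With replicates 2 and 3 summed, the edgeR adjusted p was 0.0920 for MCM3 and 0.0888 for MCM5. It was 0.0538 for MCM3 without Control sh replicate 3 and 0.0584 for MCM5 without VprBP sh replicate 3.

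**Figure D3:**
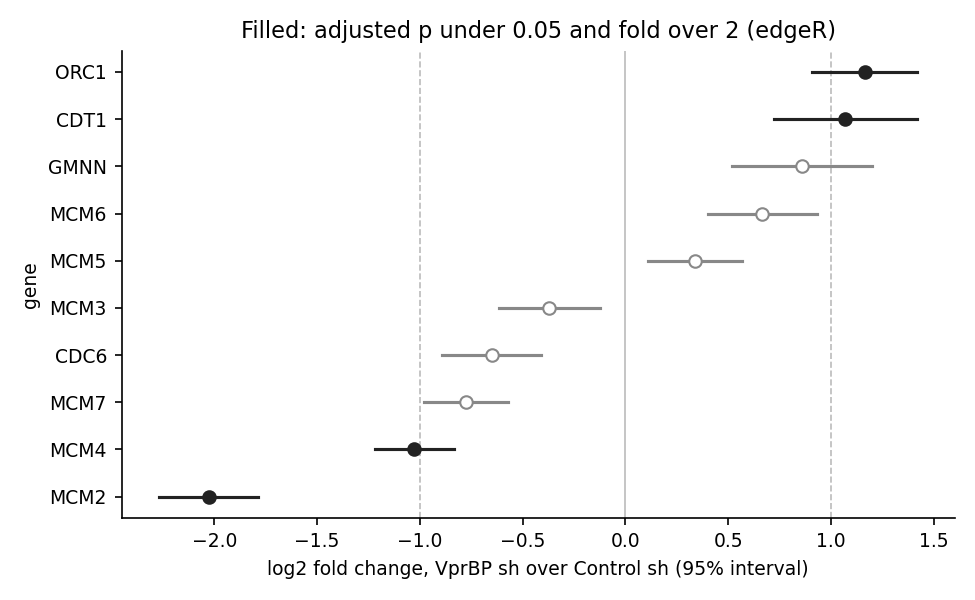
Log2 fold change of VprBP sh over Control sh for each licensing gene, with the 95% interval from edgeR's fit (n = 3 per group) and dashed lines at a 2-fold change. Filled points are called members, MCM2 and MCM4 below and ORC1 and CDT1 above, and of these the interval of MCM2 alone lies beyond 2-fold.

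Since the ring holds 1 copy of each subunit, the balance among the 6 transcripts was described from counts per kb of the canonical GENCODE 44 transcript. MCM7 had the highest level in every sample, with 33.9%, 32.8% and 33.1% of the sum over the 6 subunits in Control sh and 29.6%, 30.6% and 29.7% in VprBP sh. MCM2 went from 18.9%, 18.4% and 17.9% of the sum in Control sh to 6.43%, 7.11% and 7.29% in VprBP sh. MCM6 went from 5.65%, 6.41% and 6.46% to 16.0%, 15.1% and 14.6%, and MCM5 from 6.66% to 6.85% in Control sh to a range of 12.5% to 13.7% in VprBP sh. The subunit with the lowest level per kb was thus MCM6 in every Control sh sample and MCM2 in every VprBP sh sample. In Control sh MCM5 was close to MCM6, at 621 to 737 against 515 to 709 per kb. By counts MCM5 was the lower of this pair in Control sh replicates 2 and 3. The fold between the highest and lowest subunit was 5.11 to 6.01 in Control sh, compared with 4.07 to 4.60 in VprBP sh. These shares are set within each sample and do not depend on the scaling, but they do depend on the transcript lengths used.

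**Figure D4:**
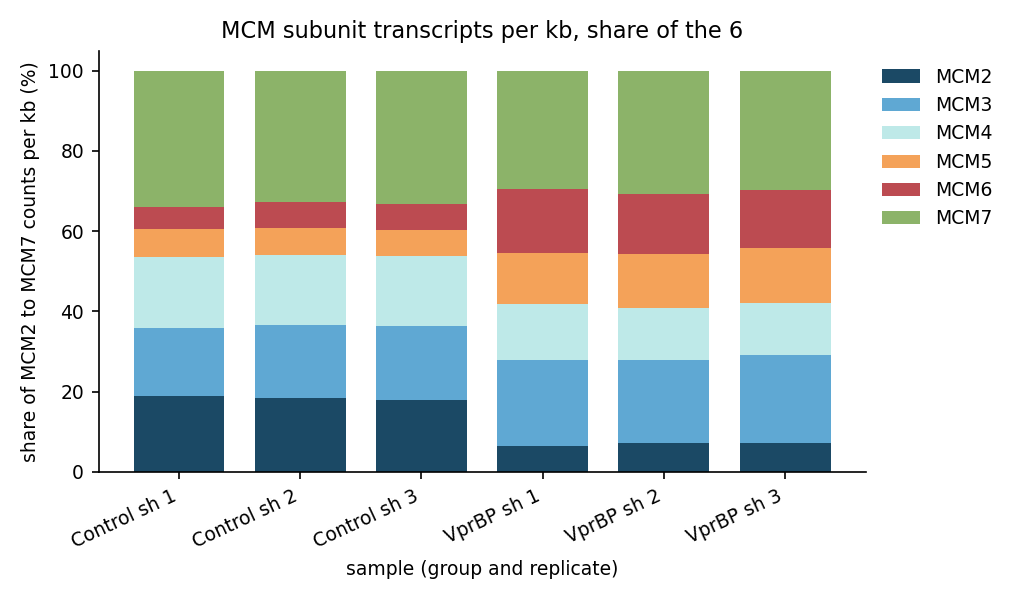
Share of each MCM subunit in the summed counts per kb of MCM2 to MCM7 (percent, stacked to 100) for each sample. The MCM2 segment shrinks from 17.9% to 18.9% in Control sh to 6.43% to 7.29% in VprBP sh, while the MCM5 and MCM6 segments widen.

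The same shift was seen in the ratio of MCM2 to MCM6 counts, which was 3.07, 2.63 and 2.54 in Control sh and 0.368, 0.431 and 0.456 in VprBP sh. This pair was chosen after its values were seen and is given without a test. The summed normalized counts of MCM2 to MCM7 were 28996, 34221 and 34872 in Control sh and 20200, 21723 and 22069 in VprBP sh. Each VprBP sh sum lay below each Control sh sum. On the log2 scale the sum differed by -0.61 (p = 0.1 in an exact two-sided permutation test, the smallest that 3 against 3 allows), and by -0.40 to -0.73 with the other scalings.

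Per kb, the order of the members in Control sh was MCM7 at 3420, then MCM2, MCM3 and MCM4 at 1891, 1844 and 1798, then GMNN, MCM5 and MCM6 at 807, 696 and 638, then CDT1 and CDC6 at 440 and 356, and ORC1 at 116 normalized counts per kb. Neighbours within each of these groups of genes overlapped over the 3 samples, and neighbours across them did not. In VprBP sh the order was MCM7 at 1997, GMNN and MCM3 at 1466 and 1427, MCM6, CDT1, MCM4 and MCM5 at 1013, 923, 883 and 881, MCM2 at 464, ORC1 at 260 and CDC6 at 227 normalized counts per kb. GMNN overlapped MCM3, and MCM6, CDT1, MCM4 and MCM5 overlapped in sequence. Per kb, ORC1 and CDC6, the 2 members with the lowest levels, changed places between the groups. In VprBP sh the margin was narrow, at 235 to 279 for ORC1 and 221 to 232 for CDC6. This order rests on the transcript lengths used, since by counts CDC6 stayed above ORC1 in every sample.

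The other genes of the licensing and replication machinery were read out as lists of 11 to 24 genes, with smaller lists for the CRL4 substrates and the E2F family. Among 11 other ORC and MCM genes, 0 were called by edgeR and 0 by DESeq2, where edgeR called 46.4% of all genes tested. Of the 11, 7 had an unadjusted edgeR p under 0.05. At any fold 4 were higher and 3 lower with an adjusted p under 0.05, where 40.4% and 36% of all genes tested were. The median was 0.04 on the log2 scale. ORC4 was higher, at 0.66 (edgeR adjusted p = 0.000577), and ORC3 was lower, at -0.52 (adjusted p = 0.0111). ORC2, ORC5 and ORC6 had log2 fold changes of 0.30, 0.04 and -0.26, with adjusted p of 0.0896, 0.838 and 0.0786. ORC1 was therefore the only ORC subunit called.

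Among 17 genes of origin firing and fork protection, the calls were 3 higher and 1 lower, where 46.4% of all genes tested were called. At any fold 8 were higher and 6 lower with an adjusted p under 0.05, where 40.4% and 36% of all genes tested were. The median was 0.32 on the log2 scale. CLSPN, the checkpoint mediator claspin, rose from 611 ± 82 to 1626 ± 92 normalized counts (SD, n = 3), or 1.41 on the log2 scale. CDC7, the kinase that phosphorylates the loaded MCM ring, rose from 384 ± 33 to 955 ± 83, and GINS2, a subunit of the active helicase named after its values were seen, from 385 ± 59 to 884 ± 22. MTBP, which acts with TICRR in firing, fell from 425 ± 67 to 146 ± 18. CDC45, which joins MCM and GINS in the active helicase, had a log2 fold change of 0.74 (edgeR adjusted p = 0.000577), short of 2-fold.

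Of 24 polymerase, clamp and fork genes, 1 was called by edgeR, in the higher direction, where 46.4% of all genes tested were called. At any fold 8 were higher and 2 lower with an adjusted p under 0.05, where 40.4% and 36% of all genes tested were. The median was -0.02. The called gene was POLD3, a subunit of DNA polymerase delta, at 564 ± 51 and 1183 ± 26 normalized counts (SD, n = 3), or 1.07 on the log2 scale, and its list had 0 called genes with TMM factors or DESeq2. PCNA, the sliding clamp to which CDT1 must bind before CRL4 destroys it, was at 6271 ± 1042 and 6057 ± 187, a log2 fold change of -0.05 (edgeR adjusted p = 0.712).

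Among 14 genes that control CDT1 and geminin, 2 were called, both higher, where 24.5% of all genes tested were called higher and 46.4% in either direction. At any fold 4 were higher and 5 lower with an adjusted p under 0.05, where 40.4% and 36% of all genes tested were. USP37, a deubiquitinase, rose from 375 ± 26 to 1112 ± 166 normalized counts (SD, n = 3), and CUL4B, a cullin of the CRL4 ligase, from 1532 ± 152 to 3295 ± 558. DTL, the CRL4 receptor for CDT1, was at 785 ± 156 and 910 ± 72, a log2 fold change of 0.21 (edgeR adjusted p = 0.218). SKP2, the receptor of the SCF ligase that also targets CDT1, was lower, from 3578 ± 439 to 1805 ± 163, a log2 fold change of -0.99 (adjusted p = 2.50e-05), just short of 2-fold.

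Of 4 other genes listed here as substrates of CRL4 with DTL, 2 were called, both lower, which is near the 46.4% of all genes tested that were called. Whether each of them is such a substrate was not tested. CDKN1A, the CDK inhibitor p21, had 3010, 2050 and 2325 counts in the Control sh samples against 216, 280 and 396 in the VprBP sh samples, a log2 fold change of -3.24 (SE 0.20, edgeR adjusted p = 3.53e-07). PCLAF, a PCNA-binding protein, had a log2 fold change of -1.42 (adjusted p = 8.72e-07).

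In the E2F family 2 of 10 genes were called higher and 3 lower, near the 24.5% and 22% of all genes tested. E2F2 rose from 285 ± 16 to 1469 ± 48 normalized counts and E2F3 from 528 ± 98 to 1275 ± 18 (SD, n = 3), both activators. E2F7, an atypical repressor, fell from 980 ± 48 to 324 ± 28, and E2F4 fell from 2767 ± 108 to 1182 ± 55. E2F5, named after its values were seen, fell from 232 ± 49 to 111 ± 20. E2F1 was at 2682 ± 135 and 2761 ± 487, a log2 fold change of 0.04 (edgeR adjusted p = 0.768).

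**Figure D5:**
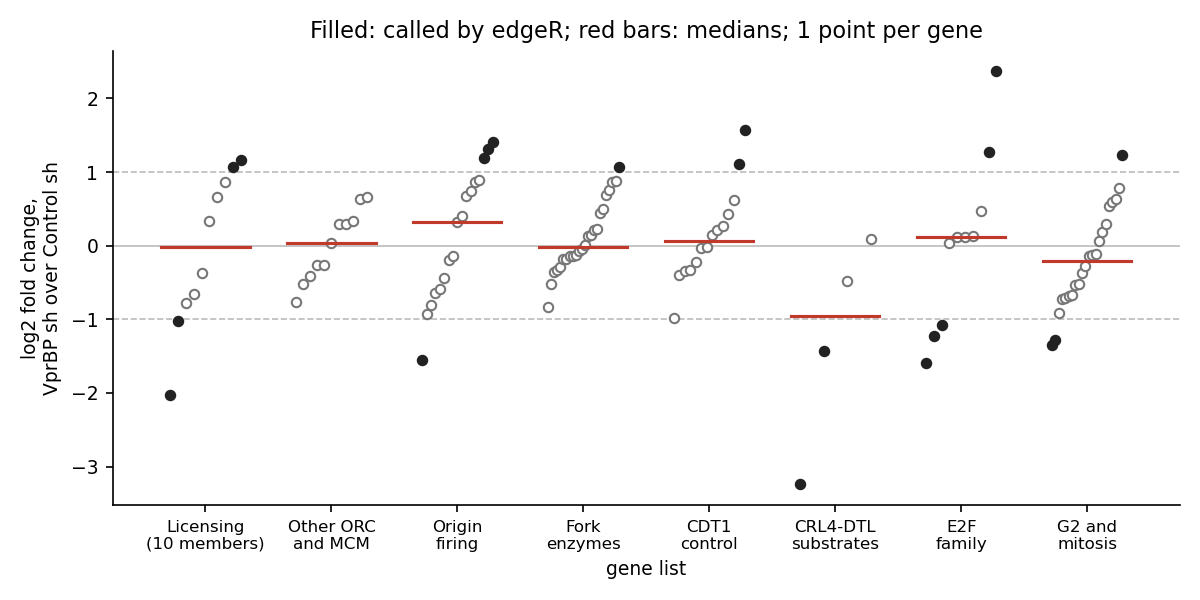
Log2 fold change of VprBP sh over Control sh for the 10 licensing members and for 7 lists of replication and cell cycle genes, 1 point per gene, with filled points for called genes, red bars at the list medians and dashed lines at a 2-fold change. Each list but that of the CRL4 substrates has its median between -0.21 and 0.32, with genes on both sides of 0.

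In bulk RNA, fewer cells in a phase of the cell cycle and less RNA per cell cannot be told apart, so 22 genes of G2 and mitosis were read beside the members. Their summed level ran from 63141 to 77157 normalized counts in Control sh and from 54165 to 73095 in VprBP sh. The ranges overlapped only through VprBP sh replicate 1, at 73095, and the other VprBP sh samples lay below every Control sh sample. TOP2A and MKI67 had the highest means in Control sh among these genes. At any fold 5 were higher and 10 lower with an edgeR adjusted p under 0.05, where 40.4% and 36% of all genes tested were. By edgeR 1 of them was called higher (NDC80, a kinetochore protein) and 2 lower (NUF2, its partner, and TPX2, a spindle factor). Of all genes tested, 24.5% were called higher and 22% lower. The median of the list was -0.21 on the log2 scale. MKI67, a proliferation marker, had a log2 fold change of -0.73 (edgeR adjusted p = 0.000546). The part of the cell cycle in the values of the members was not tested.

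The genes nearest to CDT1 in pattern were SCAND1, FAM13A, TRIR, SAC3D1 and BCKDHA, at Euclidean distances of 0.113 to 0.165 on centred log2(normalized count + 1) over the 6 samples, among 12111 genes whose mean reached 100 normalized counts. For the mean of MCM2 to MCM7 they were CDK2, UBE2M, PRMT1, BANF1 and ZBTB5, at 0.0476 to 0.0796 among 12106 genes. The log2 fold changes were 0.98 to 1.14 in the genes nearest to CDT1 and -0.57 to -0.52 in those nearest to the MCM mean. With groups this far apart the distance mainly picks genes with a like group difference, and shared regulation was not tested. The MCM mean also joins subunits that moved in opposite directions.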

How the data were processed

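RNA-seq was analysed for 6 samples, grouped and numbered from the titles in the labels. The authors aligned single-end reads to hg38 with STAR, quantified genes in Partek Flow and deposited estimated counts, of which 59.4% are whole numbers. The methods name upper quartile normalization, which the deposited values do not carry. The labels name a SMARTER kit and the methods a stranded KAPA kit.

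Estimated counts were rounded and tested with edgeR 4.0.16 (R 4.3.3), quasi-likelihood test, upper quartile factors (quantile 0.75), its filter with a minimum of 10 counts and no replicate block. The design had been written for counts. Standard errors are the log2 fold change over the square root of F. A floor of 3 counts equals 2.28 to 3.44 normalized counts and covers counting error only. The scripts were tested on simulated data. Here edgeR stands in for Partek's own test, and the study's thresholds were kept.

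The members and lists were chosen with earlier results of these data known. Named genes were the members, DCAF1, the 2 highest and 2 lowest called genes of each list whose higher group mean reached 100 normalized counts, ORC2 to ORC6, CDC45, DTL, SKP2, CDKN1A, PCNA, E2F1, MKI67 and the nearest genes in pattern. Alternatives were TMM, library size, DESeq2, 2 other filters, unrounded values, a replicate block, glmTreat, leaving out each replicate and, added after the data were seen, summing replicates 2 and 3. Coordinates are those of the table, with the last base as in GENCODE 44.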

Additional observations from a re-analysis of the deposited data

How the results depend on the processing

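All 10 members kept their direction in each of the 14 alternatives that refit the fold change, which gave 140 values, and the calls of 4 members changed over these and glmTreat, which keeps the fold changes and alters only the test. CDT1 was no longer called with TMM factors (0.97) or DESeq2 (0.95), MCM4 not with library size (-0.82), and GMNN was called there (1.07). Members called higher were therefore 1 with TMM or DESeq2, and 1 was called lower with library size. Of 16756 genes tested, 7685 were called with TMM (3747 higher) and 8147 with library size (4899 higher). DESeq2 called 7621 of 16754 genes (3634 higher). Against a fold of 2, glmTreat called 0 higher and 1 lower, with CDT1 (1.07), ORC1 (1.16) and MCM4 (-1.03) not called. It called 6263 of all 16756 genes tested, 3129 of them higher. Leaving out a replicate gave 1 to 2 members called higher, 1 to 2 called lower, 0.96 to 1.23 for CDT1 and -1.10 to -0.99 for MCM4. Over all genes, 7949 to 8142 were then called among 17197 to 17323 tested. Of the 10 members with an adjusted p under 0.05 at any fold, 8 remained with replicates 2 and 3 summed and 9 or 10 in the other alternatives but glmTreat. At least 10 counts in every sample left 13103 genes, of which 4690 were called in place of 7778. Over all genes tested the median was 0.08 on the log2 scale, and it moved to -0.01 under TMM, to -0.04 under DESeq2 and to 0.29 under library size.

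No pairing by replicate number was visible, since the deviations of same-numbered samples correlated at -0.18, -0.06 and -0.12. Replicate 1 stood apart in both groups, and whether same-numbered samples shared a culture or batch was not tested. A replicate block called 7686 genes and the same number of members, 2 higher and 2 lower, with log2 fold changes of -2.03 for MCM2 and 1.05 for CDT1.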
